A study of Mus musculus with 28 samples.

Results

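Polycomb and trithorax proteins, together with the enzymes that move nucleosomes and place or remove histone acetyl and methyl groups, are encoded by 44 genes that were followed here through the formation of blood cells from endothelium in the mouse embryo. They were chosen by symbol as subunits or enzymes of these complexes, not by a threshold on their values, and all 44 were among the 24015 genes of the deposited count table. RNA was sequenced from 28 libraries of 100 sorted cells each, all from embryos labelled 23GFP transgenic. The sources used here name neither what drives that transgene nor the sort gates, and every population carries it, so none serves as a non-transgenic control. At E8.5 the populations were hemogenic endothelium (HE, the endothelium from which blood arises, 4 libraries) and endothelial cells (EC, 3 libraries). At E9.5 they were pro-HSC/HPC (HPC standing for hematopoietic progenitor cell), HE and EC, and at E10.5 pre-HSC II, pre-HSC I, HE and EC, with 3 libraries each. The tissue label is PAS+VU on the first and middle days and AGM+VU on the last, E10.5, so tissue and day cannot be told apart between E9.5 and E10.5.

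Polycomb repressive complex 2 (PRC2) places methyl groups on lysine 27 of histone H3. Its catalytic subunit is Ezh1 or Ezh2, held with Suz12 and Eed. Polycomb repressive complex 1 (PRC1) adds ubiquitin to histone H2A through Ring1 or Rnf2, and its PCGF subunit decides which variant of the complex forms. The trithorax side includes the COMPASS methyltransferases of lysine 4 on the same histone and the BAF nucleosome remodellers. Ezh1, Kmt2a and Bmi1 are known for roles in blood stem cells or in the emergence of blood in the mouse embryo.

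Totals ran from 16308918 to 31405603 counts per library, and 13935 to 16050 genes had at least 1 count. Levels are CPM, library-scaled counts after TMM normalization, on which 3 counts correspond to 0.108 to 0.188 CPM in a library. The mean log2(CPM + 1) of 7 endothelial genes was 5.09 to 5.55 in pre-HSC II, 6.78 to 7.33 in pre-HSC I, 6.94 to 7.14 in E8.5 EC and 7.79 to 8.88 in the libraries of the other populations. The same measure over 8 genes of blood commitment was 4.02 to 6.10 in pro-HSC/HPC, pre-HSC I and pre-HSC II and at most 2.45 in HE and EC. Red cell transcripts varied within populations, with a level of 0.991 to 6.59 in pro-HSC/HPC and 1.18 to 4.48 in pre-HSC I. Fewer cells of a type and less RNA per cell cannot be told apart in such pools. The series describes biological replicates, but no label ties a library to an embryo or litter, so p-values measure the spread between these samples.

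The results below turn on 4 genes more than on the others, and the 250 bases before a listed start site of each are given here. They are printed from RefSeq on GRCm38.p6, a later build than the mm9 of the counts, 5′ to 3′ on the gene's strand, and the core motif of RUNX factors (TGTGGT or TGCGGT, on either strand) is in capitals.
Ezh1 (chr11:101226464-101226713, minus strand): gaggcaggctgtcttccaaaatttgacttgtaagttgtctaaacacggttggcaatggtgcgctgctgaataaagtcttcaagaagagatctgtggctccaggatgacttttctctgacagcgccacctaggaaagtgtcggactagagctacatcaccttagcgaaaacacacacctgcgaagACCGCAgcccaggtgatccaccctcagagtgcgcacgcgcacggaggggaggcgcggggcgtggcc
Ezh2 (chr6:47595031-47595280, minus strand): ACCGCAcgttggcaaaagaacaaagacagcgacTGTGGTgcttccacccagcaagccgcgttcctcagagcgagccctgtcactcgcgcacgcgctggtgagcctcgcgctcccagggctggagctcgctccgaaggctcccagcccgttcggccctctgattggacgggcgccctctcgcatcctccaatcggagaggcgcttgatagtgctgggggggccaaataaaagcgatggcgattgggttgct
Jarid2 (chr13:44730524-44730773, plus strand): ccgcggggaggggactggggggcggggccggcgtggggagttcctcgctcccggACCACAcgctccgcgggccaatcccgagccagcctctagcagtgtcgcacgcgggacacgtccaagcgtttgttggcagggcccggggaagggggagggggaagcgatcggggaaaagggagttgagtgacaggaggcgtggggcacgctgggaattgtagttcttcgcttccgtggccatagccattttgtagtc
Pcgf5 (chr19:36348079-36348328, plus strand): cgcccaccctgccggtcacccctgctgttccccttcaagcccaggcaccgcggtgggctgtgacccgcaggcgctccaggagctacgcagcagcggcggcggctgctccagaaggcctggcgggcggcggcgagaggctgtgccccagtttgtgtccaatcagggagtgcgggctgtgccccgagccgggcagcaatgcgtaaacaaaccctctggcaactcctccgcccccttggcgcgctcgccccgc
For Jarid2 and Pcgf5 the first listed of several start sites is shown. Start sites were not matched to the gene models counted, and the one shown for Pcgf5 may not be that of its counted model. The stretch before Ezh2 held 2 RUNX cores and those shown for Ezh1 and Jarid2 held 1 each. The other stretch listed for Jarid2 held none, and these letters were not found in any stretch listed for Pcgf5. Promoters were found for 38 of the 44 genes, and 13 of their 51 stretches held the core (25.5%), against 18.6% of all 32851 stretches of that length in the table. The E2F motif TTTNNCGC was in 9.80% of the members' stretches, against 4.28% of all, and the ETS core CCGGAA in 17.6%, against 12.0%. The GC box GGGCGG was in 80.4% of the members' stretches, against 32.7% of all, and the GATA motif AGATAA was in 1.96%, against 9.99%. The CCAAT box occurred in 33.3%, against 33.8%. All motifs were read on both strands. These are counts of letters, with no measurement of binding.

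All 44 genes passed the filter on low counts that left 15238 genes, and their levels spanned a wide range. Averaged over the 9 populations and divided by gene length, Rbbp7, a histone-binding WD40 protein of PRC2 and of deacetylase complexes, stood at 157 CPM per kb and the deacetylase Hdac1 at 149 CPM per kb. Rbbp4, the close relative of Rbbp7, followed at 58.5 CPM per kb, Hdac2 at 46.1 and the ubiquitin ligase Rnf2 at 46.0. At the other end were Ring1, the second ligase of PRC1, with 0.599 CPM per kb, Phf19 with 0.470 and Cbx7 with 0.222. A test of any difference among the 9 populations called 15 of the 44 genes (34.1%), against 45.0% of all genes tested (edgeR quasi-likelihood test, adjusted p under 0.05, here and below). The 15 were Ezh1, Ezh2, Eed, Suz12, Rbbp7, Jarid2, Mtf2, Bmi1, Pcgf1, Pcgf5, Cbx6, Phc2, Wdr5, Rbbp5 and Hdac1. When 1 of the 28 libraries was left out at a time, the call was kept in 7 runs for Rbbp5, 10 for Pcgf1, 13 for Phc2 and 15 for Bmi1, and in 25 or more for each of the other 11 genes. Of the 6 PRC2 core genes 5 were among them. None of the 4 histone demethylases, 3 histone methyltransferases, 2 acetyltransferases, 3 BAF subunits and 2 CHD remodellers was called in that test.

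**Figure D1:**
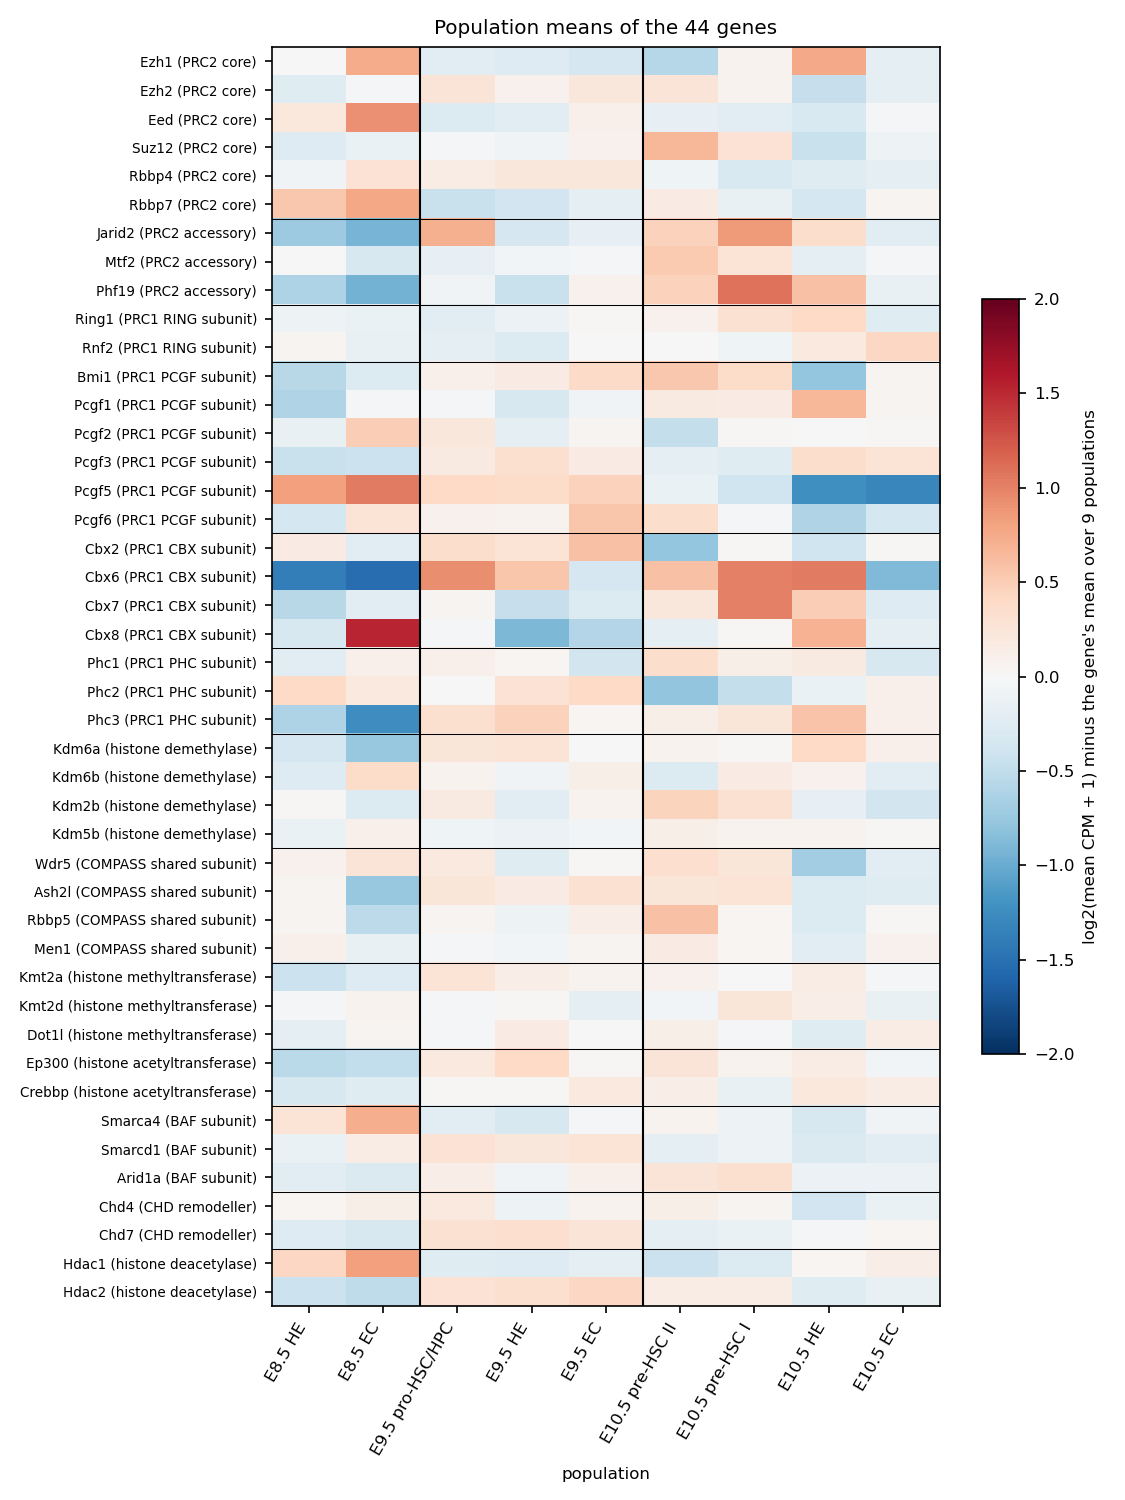
Population means of the 44 genes by role. Colour is log2(mean CPM + 1) minus the mean of that value over the 9 populations, and vertical lines separate the days. Pcgf5 is red at E8.5 and deep blue in E10.5 HE and EC, and Cbx6 runs the other way from E8.5 to E10.5 HE.

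Comparing HE with the EC of its own day asks which genes mark endothelium that makes blood. Among the 44 genes none was called at any of the 3 days. The share of all genes called was 6.81% at E8.5, 0.302% at E9.5 and 3.48% at E10.5. At an unadjusted p under 0.05, edgeR gave 7 of the 44 genes at E8.5 (15.9%, against 21.7% of all genes), 0 at E9.5 (against 6.54%) and 4 at E10.5 (9.09%, against 15.9%). DESeq2 on the same counts called 2 at E8.5, both lower in HE, 0 at E9.5 and 2 at E10.5, both higher in HE. The nearest to the threshold at E8.5 was Eed, the PRC2 subunit that binds trimethylated lysine 27. It had 99.7, 76.5, 67.8 and 91.2 CPM in E8.5 HE, against 129, 110 and 173 CPM in E8.5 EC (log2 difference -0.71 ± 0.23 SE, edgeR adjusted p = 0.056). The 4 HE libraries lay below the 3 EC libraries. As an alternative chosen after seeing the data, the trend of level on gene length (summed exons) was removed from each library. With it removed, Eed (edgeR adjusted p = 0.024), Ezh1 (0.036) and Kdm6b (0.034) were called lower in E8.5 HE. Endothelial markers differed as well, at 7.79 to 8.21 in E8.5 HE libraries and 6.94 to 7.14 in E8.5 EC, and their part in these differences was not tested. At E10.5 the nearest was Ezh1, described below.

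Emergence of blood was followed from HE to the populations of the same day. In pro-HSC/HPC 1 of the 44 genes, Jarid2, was higher than in E9.5 HE, against 0.656% of all genes called. In pre-HSC I 2 were higher than in E10.5 HE and none lower, Wdr5 and Pcgf5 (6.88% of all genes called). In pre-HSC II 8 differed from E10.5 HE, which is 18.2% of the 44, against 21.4% of all genes tested. Of these 7 were higher (15.9%, against 8.75% of all genes) and 1 was lower (2.27%, against 12.7% of all genes). The 7 were Ezh2, Suz12, Mtf2, Bmi1, Pcgf5, Wdr5 and Rbbp5, and the 1 lower was Ezh1. Between pre-HSC II and pre-HSC I none was called by edgeR (4.42% of all genes called), with 2 at an unadjusted p under 0.05 (4.55%, against 11.8% of all genes) and 0 by DESeq2. The pre-HSC I and pre-HSC II comparisons share the E10.5 HE libraries. Of the 9 populations E10.5 HE had the lowest mean of Ezh2, Suz12, Bmi1 and Wdr5 and the highest of Ezh1. For Mtf2, Pcgf5 and Rbbp5 another population was lowest. Cells in these steps also differed in cell-cycle transcripts, with 13 of 30 S phase and mitosis genes higher in pre-HSC II than in E10.5 HE and 0 lower, and 8 higher in pre-HSC I and 0 lower. The mean log2(CPM + 1) of that list was 7.30 to 7.56 in pre-HSC II libraries, 7.26 to 7.43 in pre-HSC I and 6.72 to 7.08 in E10.5 HE. Levels of 8 genes of mesenchyme and smooth muscle moved too, with a mean of 1.22 (1.13 to 1.31) in pre-HSC II and 3.54 (2.61 to 4.99) in E10.5 HE. The same measure over 8 granulocyte and macrophage genes was 4.08 (4.04 to 4.12) in pre-HSC II and 0.808 (0.473 to 0.996) in E10.5 HE, and over 7 megakaryocyte and platelet genes 4.47 (4.12 to 5.12) and 2.70 (2.03 to 3.36). The part of these lists in the differences of the chromatin genes was not tested.

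**Figure D2:**
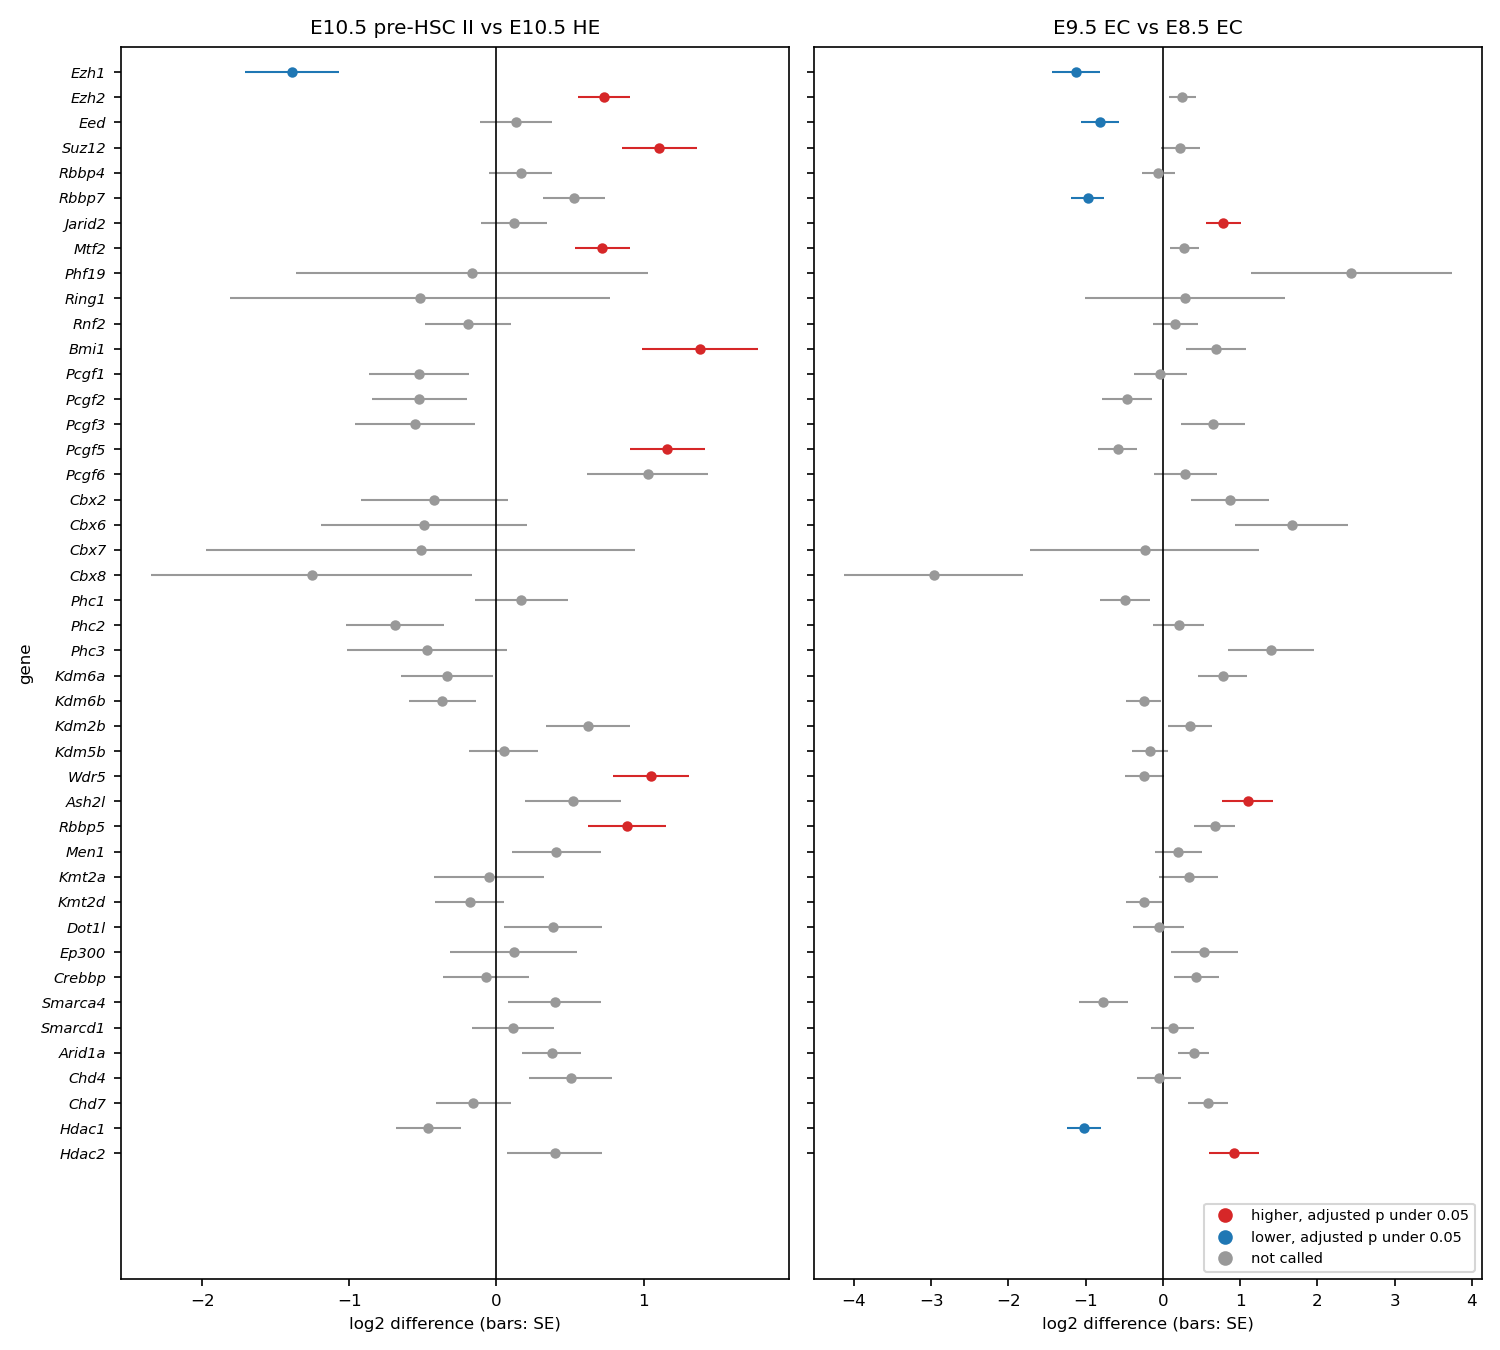
Log2 differences (points) with SE (bars) of the 44 genes between E10.5 pre-HSC II and E10.5 HE (left) and between E9.5 EC and E8.5 EC (right). Red and blue points are genes called higher and lower. On the left 7 are red and 1, Ezh1, is blue, and on the right 3 are red and 4 are blue.

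In E9.5 EC 7 of the 44 genes differed from E8.5 EC (15.9%, against 19.7% of all genes). Jarid2, Ash2l and Hdac2 were higher, against 10.1% of all genes called higher, and Ezh1, Eed, Rbbp7 and Hdac1 were lower, against 9.56% of all genes called lower. In E9.5 HE 2 differed from E8.5 HE, Cbx6 higher and Rbbp7 lower (6.54% of all genes called). Between E10.5 and E9.5 the 1 member called in each endothelial population was Pcgf5, lower in EC (0.761% of all genes called) and lower in HE (3.64%). Pre-HSC I of E10.5 against pro-HSC/HPC of E9.5 gave no call in edgeR (1.45% of all genes called), 3 at an unadjusted p under 0.05 (6.82%, against 12.3% of all genes) and 0 in DESeq2. With the length trend removed, Ezh1, Ezh2 and Jarid2 were called beside Pcgf5 in E10.5 HE against E9.5 HE. Levels differed by gene length over the first step, from E8.5 to E9.5. Genes of 7000 bases or more had a median log2 difference of 0.51 between E9.5 EC and E8.5 EC and genes under 2000 bases one of -0.58, and the medians were 0.34 and -0.39 between E9.5 HE and E8.5 HE. With the length trend of each library removed, Jarid2 was no longer called in E9.5 EC against E8.5 EC, with a log2 difference of 0.20 in place of 0.78 (edgeR adjusted p = 0.48). The other 6 kept their call, and Kdm5b, Kdm6b, Kmt2d and Smarca4 were then called lower. Of the cell-cycle genes, some fell over the same step, 11 of 30 in EC with 1 higher, and 11 of 30 in HE with none higher. Endothelial markers were at 8.04 to 8.26 in E9.5 EC libraries and 6.94 to 7.14 in E8.5 EC. The part of either list in the result was not tested.

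**Figure D3:**
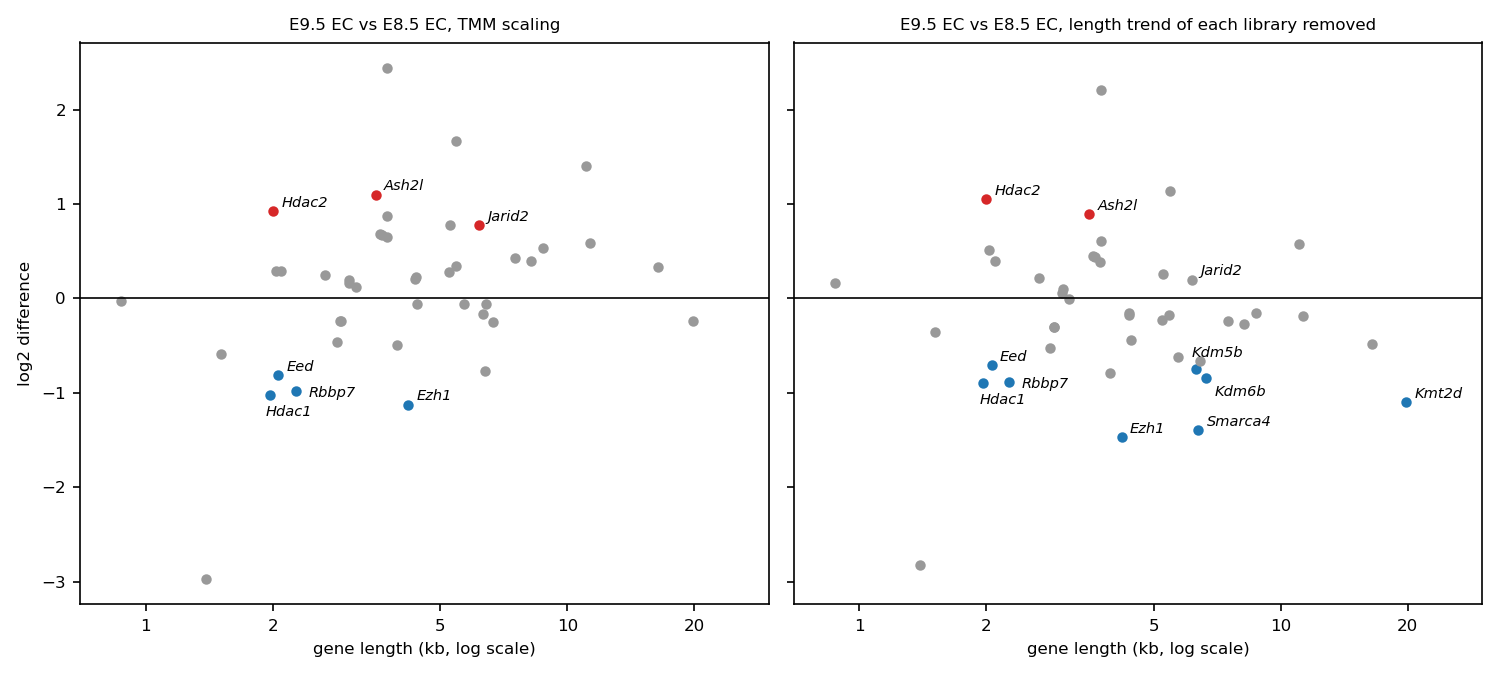
Log2 difference between E9.5 EC and E8.5 EC of the 44 genes against gene length (log axis), with TMM scaling (left) and with the length trend of each library removed (right). Red and blue points are called higher and lower. The longest genes move down in the right panel, where Jarid2 turns grey and Kmt2d and Smarca4 turn blue.

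Ezh1 and Ezh2, the alternative catalytic subunits of PRC2, moved in opposite directions between hemogenic endothelium and blood at E10.5. Ezh1 (chromosome 11, 101052429 to 101087764, mm9) had 9.95, 12.4 and 16.4 CPM in pre-HSC II, against 28.7, 48.1 and 24.8 CPM in E10.5 HE (log2 difference -1.39 ± 0.32 SE, edgeR adjusted p = 0.0019). Ezh2 (chromosome 6, 47480273 to 47545029, mm9) had 104, 127 and 124 CPM in pre-HSC II, against 70.7, 68.7 and 74.3 CPM in E10.5 HE (log2 0.73 ± 0.18, edgeR adjusted p = 0.0032). For both genes the libraries of the 2 populations did not overlap, and both calls held in all 13 alternatives and left-out libraries that were run. The means of pre-HSC I lay between for both genes, with 18.5, 18.7 and 24.7 CPM of Ezh1 and 93.7, 112 and 107 CPM of Ezh2. There the differences from E10.5 HE missed the threshold (edgeR adjusted p = 0.18 for Ezh1 and 0.058 for Ezh2), and Ezh2 was called with the length trend removed (log2 0.55, edgeR adjusted p = 0.034). Divided by gene length, Ezh2 transcripts outnumbered those of Ezh1 by 14.8 ± 2.57 in pre-HSC II, 8.07 ± 1.33 in pre-HSC I and 3.61 ± 1.26 in E10.5 HE (ratio per kb, SD, n = 3 each). The range was 11.9 to 16.4 in pre-HSC II and 2.24 to 4.72 in E10.5 HE. A high ratio was not particular to blood, since E9.5 EC ranged from 10.1 to 16.3, which overlapped pre-HSC II. The step to blood at E9.5 did not separate the ratios, with 9.81 to 13.6 in pro-HSC/HPC and 7.91 to 12.2 in E9.5 HE. Neither gene was called at that step.

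The level of Ezh1 in endothelium depended on the day and on the population. In E8.5 HE it was 25.4, 16.6, 18.7 and 18.7 CPM, against 42.4, 28.2 and 30.5 CPM in E8.5 EC. At E10.5 it was 28.7, 48.1 and 24.8 CPM in HE, against 14.0, 22.9 and 14.7 CPM in EC, so HE lay below EC at E8.5 and above it at E10.5 without overlap. Neither difference was called alone (log2 -0.77 ± 0.29 at E8.5, edgeR adjusted p = 0.11, and 0.98 ± 0.31 at E10.5, adjusted p = 0.089), although the E8.5 one was with the length trend removed (log2 -0.93, edgeR adjusted p = 0.036). The difference between HE and EC was higher at E10.5 than at E8.5 by 1.74 ± 0.43 on the log2 scale (edgeR adjusted p = 0.02), the 1 call among the 44 genes in that test, against 2.99% of all genes. That call was lost without E8.5 EC replicate 1, E10.5 EC replicate 1 or 3 or E10.5 HE replicate 2, with the estimate at 1.40 or more in every alternative run. The change of the HE and EC difference from E8.5 to E9.5 gave 0 calls in edgeR (0.847% of all genes) with 2 at an unadjusted p under 0.05 (4.55%, against 9.02% of all genes), and 0 in DESeq2. The change of the step from HE to blood between E9.5 and E10.5 also gave 0 calls in edgeR (0.0722% of all genes), with 3 at an unadjusted p under 0.05 (6.82%, against 10.1% of all genes), and 0 in DESeq2. In E9.5 EC Ezh1 had 21.1, 13.9 and 11.5 CPM, lower than in E8.5 EC with no overlap (log2 -1.12 ± 0.32, edgeR adjusted p = 0.013). That call was lost without E8.5 EC replicate 1 or without E9.5 EC replicate 2 or 3.

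Suz12, the scaffold of PRC2, and Mtf2, an accessory subunit that brings the complex to CpG islands, were both highest in pre-HSC II. Suz12 had 112, 166 and 187 CPM in pre-HSC II, against 43.9, 92.5 and 79.4 CPM in E10.5 HE (log2 1.11 ± 0.26, edgeR adjusted p = 0.0022). Mtf2 had 186, 205 and 226 CPM in pre-HSC II, against 123, 145 and 106 CPM in E10.5 HE (log2 0.72 ± 0.19, edgeR adjusted p = 0.0063). Neither gene overlapped between the 2 populations. Eed, which completes the core with them, stood at 79.9, 60.3 and 53.4 CPM in pre-HSC II, against 65.7, 51.9 and 58.8 CPM in E10.5 HE, and the libraries overlapped. Of the core subunits Suz12 and Ezh2 were thus called higher and Eed was not called. Rbbp4 overlapped as well, with 294, 231 and 196 CPM in pre-HSC II against 219, 191 and 235 CPM in E10.5 HE. Rbbp7 did not overlap, with 414, 415 and 332 CPM in pre-HSC II against 298, 215 and 292 CPM in E10.5 HE, and was not called (log2 0.53 ± 0.21, edgeR adjusted p = 0.079) except with the length trend removed (log2 0.50, edgeR adjusted p = 0.043). Between embryonic days Eed fell in EC, as did Ezh1 and Rbbp7. It had 74.4, 94.0 and 66.7 CPM in E9.5 EC, against 129, 110 and 173 CPM in E8.5 EC (log2 -0.81 ± 0.25, edgeR adjusted p = 0.021). The 2 sets did not overlap, and the call was lost without E8.5 EC replicate 3 or without E9.5 EC replicate 1 or 3.

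Rbbp7 (chromosome X, 159198304 to 159217022, mm9) fell after E8.5 in both endothelial populations. In HE it had 278, 260 and 248 CPM at E9.5, against 594, 494, 385 and 520 CPM at E8.5 (log2 -0.93 ± 0.20, edgeR adjusted p = 0.0074). In EC it had 316, 301 and 279 CPM at E9.5, against 703, 658 and 400 CPM at E8.5 (log2 -0.98 ± 0.21, edgeR adjusted p = 0.0022). The days did not overlap in either population. Removing the length trend left both calls, at -0.80 in HE and -0.88 in EC. Without E9.5 HE replicate 3 the HE call was lost (edgeR adjusted p = 0.059). Of its 2272 bases, 174 overlap Txlng on the opposite strand, and the strand setting of the counting is not given in the sources used here. Txlng averaged 16.8 to 27.4 CPM in the populations, far below Rbbp7.

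Jarid2, an accessory subunit that helps place PRC2 on its targets, was the 1 gene called at the E9.5 step to blood. It (chromosome 13, 44826143 to 45017012, mm9) had 213, 191 and 180 CPM in pro-HSC/HPC, against 104, 87.9 and 91.3 CPM in E9.5 HE (log2 1.04 ± 0.23, edgeR adjusted p = 0.021). Each pro-HSC/HPC library was well above each HE library. The call was kept in 1 of 6 runs that left out 1 library, the one without pro-HSC/HPC replicate 3. Over all 14 alternatives and left-out libraries the log2 difference stayed between 0.96 and 1.17, with adjusted p between 0.0013 and 0.33. It was also lost without the 3 libraries richest in red cell transcripts, of which 2 are pro-HSC/HPC libraries. At E10.5 the levels were 144, 166 and 183 CPM in pre-HSC II and 177, 212 and 257 CPM in pre-HSC I, against 142, 168 and 143 CPM in HE, and neither difference from HE was called. Across the 9 populations Jarid2 ranged from 61.8 CPM in E8.5 EC to 215 CPM in pre-HSC I (ratio 3.48, edgeR adjusted p = 6.7e-07 for any difference). Phf19, another accessory subunit, had between 0.0393 and 10.2 CPM in single libraries, and its difference among populations was not called (edgeR adjusted p = 0.22).

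**Figure D4:**
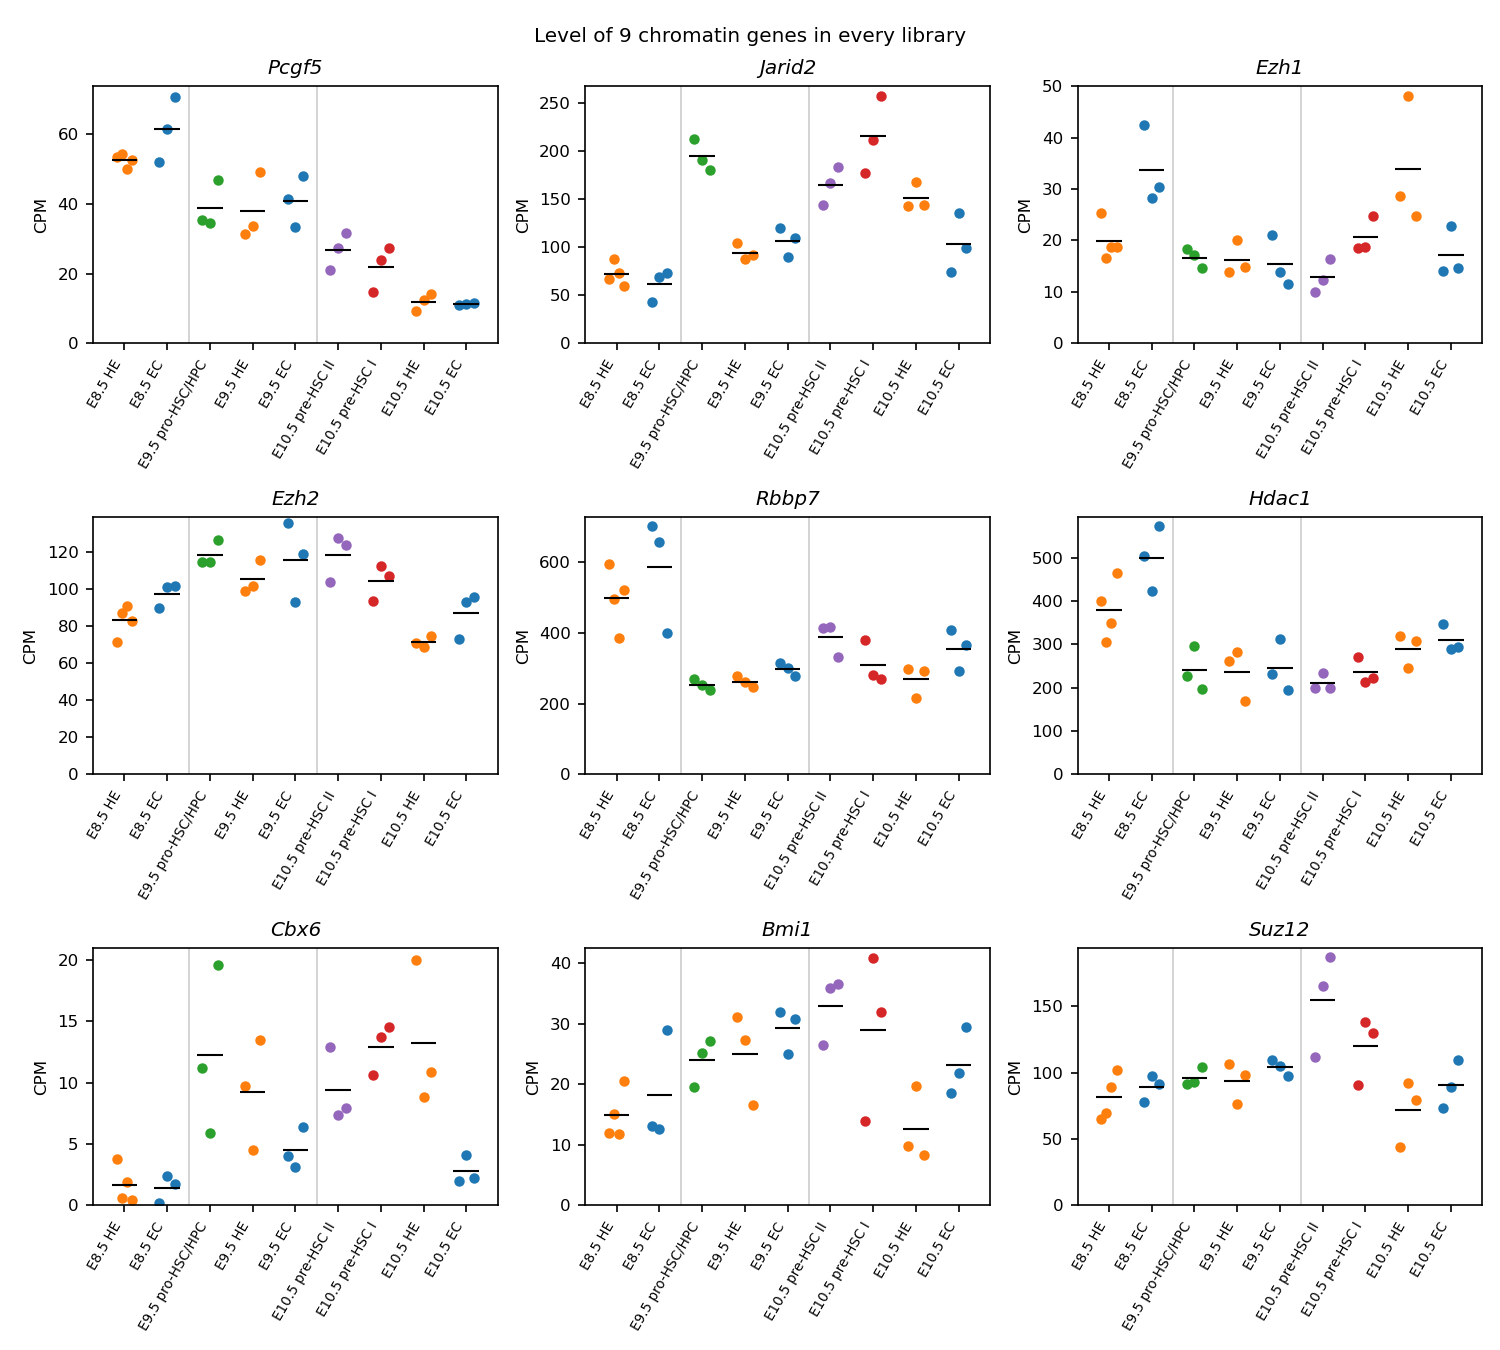
Level in CPM of 9 genes in every library (points), with the population mean (line). Vertical lines separate E8.5, E9.5 and E10.5, and colours mark the kind of population named under each column. Pcgf5 steps down with each day and is higher in pre-HSC II and pre-HSC I than in HE and EC of E10.5, while Jarid2 is higher in pro-HSC/HPC than in the other E9.5 populations.

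Pcgf5, the PCGF subunit of a variant PRC1 that places ubiquitin on H2A independently of lysine 27 methylation, had the smallest p of the 44 genes in the test over all populations (edgeR adjusted p = 4e-08). In HE it (chromosome 19, 36453557 to 36530694, mm9) had 53.5, 54.4, 50.2 and 52.7 CPM at E8.5, 31.3, 33.8 and 49.2 CPM at E9.5 and 9.18, 12.5 and 14.2 CPM at E10.5. In EC it had 52.2, 61.5 and 70.8 CPM at E8.5, 41.4, 33.5 and 48.0 CPM at E9.5 and 10.9, 11.2 and 11.6 CPM at E10.5. The 3 days did not overlap in either population. Between E10.5 and E9.5 the log2 difference was -1.67 ± 0.26 in HE (edgeR adjusted p = 0.00074) and -1.87 ± 0.26 in EC (edgeR adjusted p = 0.00048). Both calls held in all 14 alternatives and left-out libraries. Between E9.5 and E8.5 the difference was not called (log2 -0.59 ± 0.25 in EC, edgeR adjusted p = 0.1).

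In blood of E10.5 Pcgf5 was higher than in the endothelium beside it. It had 21.0, 27.5 and 31.8 CPM in pre-HSC II and 14.8, 24.0 and 27.3 CPM in pre-HSC I, against the 9.18 to 14.2 CPM of E10.5 HE. Both sets lay wholly above HE, by 1.16 ± 0.26 on the log2 scale for pre-HSC II (edgeR adjusted p = 0.0014) and 0.88 ± 0.25 for pre-HSC I (edgeR adjusted p = 0.033). The pre-HSC II call held in all 13 runs, while that of pre-HSC I was lost in 8 of 14, 4 of them with a library left out (HE replicate 1 or 2 or pre-HSC I replicate 2 or 3). At E9.5 the 35.5, 34.6 and 46.9 CPM of pro-HSC/HPC overlapped the 31.3, 33.8 and 49.2 CPM of HE. The test of whether the step from HE to blood differed between E10.5 and E9.5 did not reach the threshold for Pcgf5 (log2 0.85 ± 0.36, edgeR adjusted p = 0.4).

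The make-up of the PCGF transcripts changed with it. Summed per kb over the 6 PCGF genes, Pcgf5 made up 59.3% in HE (range 53.5 to 63.0%) and 54.6% in EC (49.3 to 57.3%) at E8.5. By E10.5 it made up 16.9% in HE (14.6 to 19.2%) and 17.8% in EC (16.8 to 18.9%), against 31.1% in pre-HSC II and 27.9% in pre-HSC I. Pcgf1, the PCGF subunit of the variant complex with Kdm2b and Bcor, was then the leading one in HE on this scale, with 45.9% (41.3 to 53.4%). That lead depends on the division by length, as Pcgf1 is the shortest of these genes at 874 bases. In CPM Pcgf3 had the highest PCGF mean in E10.5 HE, 20.8, against 18.5 for Pcgf1. Pcgf1 itself had 19.5, 18.4 and 17.7 CPM in E10.5 HE, against 11.9, 8.60 and 6.001 CPM in E9.5 HE, a difference that was not called although the days did not overlap (log2 1.07 ± 0.34, edgeR adjusted p = 0.083). The PCGF sum was 46.6 CPM per kb in E10.5 HE (41.8 to 49.1) and 59.1 CPM per kb in E8.5 HE (56.2 to 65.4).

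**Figure D5:**
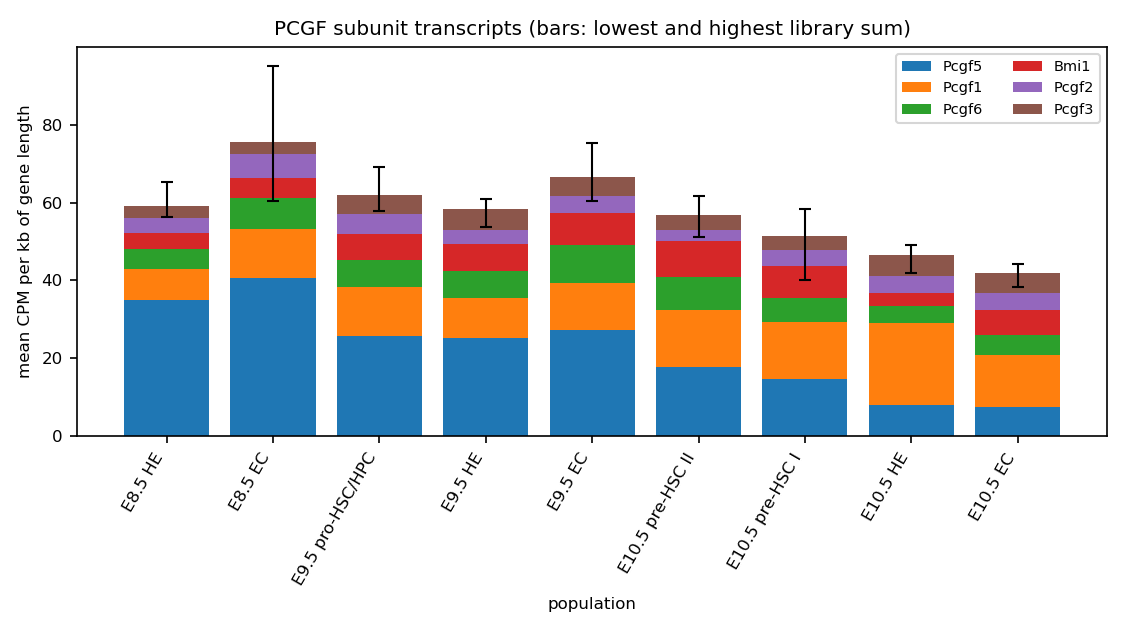
Mean CPM per kb of the 6 PCGF genes, stacked for each population, with bars from the lowest to the highest library sum. Pcgf5 (blue) makes up 59.3% of the sum in E8.5 HE and 16.9% in E10.5 HE, where Pcgf1 (orange) makes up 45.9%.

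Bmi1, the PCGF subunit of canonical PRC1 that maintains blood stem cells, was higher in pre-HSC II than in HE. It had 26.4, 35.9 and 36.5 CPM in pre-HSC II, against 9.83, 19.7 and 8.29 CPM in E10.5 HE (log2 1.39 ± 0.40, edgeR adjusted p = 0.012). The libraries did not overlap, and the call was lost without E10.5 HE replicate 1 or 3. A high level was not particular to blood, since E9.5 EC had 32.0, 25.0 and 30.8 CPM of Bmi1, which overlapped pre-HSC II. In pre-HSC I Bmi1 had 14.0, 40.9 and 31.9 CPM, which overlapped E10.5 HE (edgeR adjusted p = 0.066, and 0.049 with the length trend removed). Its paralog Pcgf2 stayed between 7.59 and 21.9 CPM in all 28 libraries and was not called between populations with TMM scaling. Pcgf3 and Pcgf6 were likewise not called, with 6.45 to 28.6 CPM and 6.13 to 24.2 CPM.

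Among the chromobox subunits that read methylated lysine 27, Cbx6 changed and the others were not called with TMM scaling. Cbx6 (chromosome 15, 79654328 to 79664763, mm9) had 9.73, 4.54 and 13.5 CPM in E9.5 HE, against 3.77, 0.576, 1.90 and 0.403 CPM in E8.5 HE (log2 2.47 ± 0.67, edgeR adjusted p = 0.027). The lowest E9.5 library was only slightly above the highest of E8.5. The call was lost in 7 of 14 runs, among them those without E8.5 HE replicate 2 or 4 or E9.5 HE replicate 1 or 3, and with the length trend removed. At E10.5 Cbx6 had 19.99, 8.80 and 10.9 CPM in HE, against 2.02, 4.12 and 2.21 CPM in EC, without overlap but without a call (log2 2.25 ± 0.74, edgeR adjusted p = 0.099). It overlaps Npcd on the same strand over 659 of 5449 bases, and Npcd had 0 counts in every population. Cbx2 had 3.74 to 26.1 CPM over the 28 libraries. Cbx8 had at most 12.8 CPM, in E8.5 EC replicate 3, and 0 to 4.91 CPM in the other 27 libraries. Cbx7, a subunit of stem cell PRC1, was at 0 in 4 libraries and below the level of 3 counts in others, and reached at most 4.14 CPM, in pre-HSC I.

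The polyhomeotic subunits Phc1, Phc2 and Phc3, which let PRC1 complexes assemble into larger bodies, had no call between any 2 populations. Phc2 was called in the test over all 9 populations (edgeR adjusted p = 0.036), a call lost in 15 of 28 runs that left out 1 library. It had 23.3, 19.97 and 27.4 CPM in pre-HSC II, against 45.2, 35.8 and 33.1 CPM in E10.5 HE, without overlap (log2 -0.69 ± 0.33, edgeR adjusted p = 0.15). Its share of the PHC sum per kb was 38.7% (36.6 to 41.5%) in pre-HSC II and 51.1% (42.8 to 62.0%) in E10.5 HE, while that of Phc1 was 49.6% (47.1 to 53.1%) and 35.3% (29.5 to 42.8%). By mean share Phc1 thus led in pre-HSC II and Phc2 in HE on this scale. In E10.5 HE the highest Phc1 share and the lowest Phc2 share were both 42.8%, so Phc2 did not lead clearly in every library. The ligase Rnf2 lay between 84.6 and 230 CPM and Ring1 between 0 and 3.13 CPM in all libraries, so every library had far more Rnf2 than Ring1; per kb the averages were the 46.0 and 0.599 given above.

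The histone demethylases had no call with TMM scaling. Kdm6a, an X-linked demethylase of lysine 27, had 43.8, 58.0 and 60.5 CPM in E9.5 HE, against 29.2, 28.7, 51.7 and 30.8 CPM in E8.5 HE, and the days overlapped through 1 E8.5 library. Kdm6b, its relative, was at higher levels per kb and had 166, 130, 179 and 215 CPM in E8.5 HE, against 255, 206 and 340 CPM in E8.5 EC (log2 -0.63 ± 0.21, edgeR adjusted p = 0.071). With the length trend removed this became -0.89 and was called (edgeR adjusted p = 0.034), and Kdm5b and Kdm6b were called lower in E9.5 EC than in E8.5 EC, as given above. Kdm2b, which brings variant PRC1 to CpG islands, had 55.2, 72.7 and 73.0 CPM in pre-HSC II, against 42.9, 35.3 and 52.4 CPM in E10.5 HE, without overlap and without a call (edgeR adjusted p = 0.13). With the length trend removed it was called (edgeR adjusted p = 0.042). Kdm5b, a demethylase of lysine 4, had population means that differed by a ratio of 1.19 at most, the smallest ratio of the 44 genes.

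On the trithorax side the shared COMPASS subunits Wdr5 and Rbbp5 were called between pre-HSC II and E10.5 HE. Ash2l was called only between E9.5 EC and E8.5 EC, and not over the 9 populations (edgeR adjusted p = 0.092). Men1 and the methyltransferases themselves were not called with TMM scaling. Wdr5, the WD40 subunit that holds the complex together, had 44.7, 42.0 and 61.1 CPM in pre-HSC II and 35.5, 57.9 and 46.0 CPM in pre-HSC I, against 21.8, 23.5 and 25.9 CPM in E10.5 HE. Every blood library was above every HE library of that day. E8.5 EC, with 57.6, 48.5 and 34.8 CPM, overlapped pre-HSC II and pre-HSC I. The log2 difference from HE was 1.05 ± 0.26 for pre-HSC II (edgeR adjusted p = 0.0038) and 0.97 ± 0.26 for pre-HSC I (edgeR adjusted p = 0.02). The pre-HSC II call held in all 13 runs, and that of pre-HSC I was kept in 1 of the 6 runs that left out 1 library, the one without pre-HSC I replicate 1. Rbbp5, which binds Wdr5 and Ash2l, had 31.9, 52.8 and 47.7 CPM in pre-HSC II, against 20.02, 28.7 and 22.9 CPM in E10.5 HE (log2 0.89 ± 0.27, edgeR adjusted p = 0.016), and kept its call in 2 of 6 such runs, those without E10.5 HE replicate 2 or pre-HSC II replicate 1. Ash2l had 50.4, 38.6 and 49.6 CPM in E9.5 EC, against 26.6, 28.1 and 9.84 CPM in E8.5 EC (log2 1.10 ± 0.33, edgeR adjusted p = 0.019). The days did not overlap, and E8.5 EC replicate 3 was the lowest of all 28 libraries; the call was lost without it, and without E9.5 EC replicate 1 or 3.

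Kmt2a, the methyltransferase whose rearrangements cause leukaemia, ran from 29.0 to 85.4 CPM over the 28 libraries and was not called with TMM scaling or with the length trend removed. Within E10.5 the libraries numbered 1 were the lowest of their population for it, with 34.6 CPM in pre-HSC II, 33.0 in pre-HSC I, 43.1 in HE and 36.0 in EC, against 62.4 to 85.4 CPM in the other E10.5 libraries. The acetyltransferase Ep300 did the same, with 16.2, 17.6, 24.8 and 13.3 CPM in those 4 libraries, in the same order, against 36.8 to 51.9 CPM in the others. In these 4 libraries, and in the 3 E9.5 libraries numbered 2, long genes were low as a class. The median deviation of genes of 7000 bases or more minus that of genes under 2000 bases was -0.44 to -0.75 on the log2 scale in the E10.5 libraries and -0.29 to -0.42 in those of E9.5. E8.5 HE replicate 1 was low in the same way, at -0.40. Kmt2a has 16439 bases and Ep300 has 8749 bases, and the part of length in their spread was not tested. Kmt2d, the methyltransferase of enhancers, had 229 to 460 CPM, Dot1l, which acts on lysine 79, had 11.3 to 31.0 CPM, and Crebbp, the relative of Ep300, had 36.5 to 87.5 CPM. The menin gene Men1 had 18.2 to 57.7 CPM. With TMM scaling none of these was called, and with the length trend removed only Kmt2d was, in E9.5 EC as given above.

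Smarca4, the ATPase of BAF, differed between libraries within both E8.5 populations. It had 236, 239, 97.1 and 104 CPM in E8.5 HE and 269, 272 and 154 CPM in E8.5 EC, with replicates 1 and 2 above the rest in both. From E9.5 on it lay between 72.7 and 163 CPM. The difference between E9.5 EC and E8.5 EC was not called (log2 -0.77 ± 0.32, edgeR adjusted p = 0.089), and with the length trend removed it was -1.39 and called (edgeR adjusted p = 0.0035). In the same way Smarca4 was called lower in E9.5 HE than in E8.5 HE (log2 -1.07, edgeR adjusted p = 0.035). The BAF subunits Arid1a, with 131 to 268 CPM, and Smarcd1, with 24.8 to 59.5 CPM, were not called with TMM scaling. With the length trend removed Arid1a was called higher than in E10.5 HE in pre-HSC II (log2 0.57, edgeR adjusted p = 0.0053) and in pre-HSC I (log2 0.50, edgeR adjusted p = 0.034). Chd4, the ATPase of the NuRD complex, had 134 to 325 CPM and Chd7, which is known from neural crest development, had 66.0 to 162 CPM, also without a call in either way of scaling.

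Hdac1 and Hdac2, paralogous deacetylases that occupy the same complexes, moved in opposite directions in EC between E9.5 and E8.5. Hdac1 (chromosome 4, 129193348 to 129219890, mm9) had 232, 312 and 196 CPM in E9.5 EC, against 504, 422 and 574 CPM in E8.5 EC (log2 -1.02 ± 0.23, edgeR adjusted p = 0.0023). Hdac2 had 128, 99.1 and 133 CPM in E9.5 EC, against 50.8, 61.1 and 78.0 CPM in E8.5 EC (log2 0.93 ± 0.33, edgeR adjusted p = 0.046). Both pairs of groups stood apart without overlap, and the genes differ little in length, with 1971 and 2004 bases. The Hdac1 call held in all 13 runs, while that of Hdac2 was lost without E8.5 EC replicate 1 or 2 or E9.5 EC replicate 1 or 3. In HE Hdac1 had 260, 282 and 169 CPM at E9.5, against 400, 306, 350 and 466 CPM at E8.5, just short of a call (log2 -0.68 ± 0.21, edgeR adjusted p = 0.05).

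Of 107 other genes of these complexes, 19 differed between pre-HSC II and E10.5 HE (17.8%, against 21.4% of all genes) and 22 between E9.5 EC and E8.5 EC (20.6%, against 19.7%), shares near the background. Of 24 other Polycomb genes tested, 1 was higher and 2 were lower in pre-HSC II than in E10.5 HE. Bcor, the partner of Pcgf1 in variant PRC1, had 55.1 CPM in pre-HSC II and 23.6 CPM in HE (log2 1.22 ± 0.25, edgeR adjusted p = 0.00062), and Yaf2 and Auts2 were lower by 0.76 and 1.28 on the log2 scale. In pre-HSC I Bcor was the 1 gene of that list called, with 60.2 CPM against the same HE libraries. Of 17 other COMPASS and trithorax genes, Dpy30, Psip1 and Setd7 were higher in pre-HSC II, at log2 0.92, 0.98 and 0.99, and none was lower. Dpy30, a shared COMPASS subunit like Wdr5, had 314 CPM in pre-HSC II and 166 CPM in HE. Of 21 other BAF genes, the core subunit Smarcc1 (log2 1.19 ± 0.21, edgeR adjusted p = 9.1e-05) and Brd7 of PBAF were higher in pre-HSC II. Of 23 other CHD, ISWI, INO80 and NuRD genes 5 were higher and 2 were lower there. The 2 lower were the ISWI ATPase Smarca1, with 0.298 CPM in pre-HSC II and 12.5 CPM in HE, and Chd3 of NuRD, with 6.24 and 36.6 CPM. The other ISWI ATPase, Smarca5, was higher, with 247 CPM in pre-HSC II and 130 CPM in HE (log2 0.93 ± 0.22, edgeR adjusted p = 0.0029). Of 22 other acetyltransferase and deacetylase genes, Kat2a and Ing5 were higher and Hdac7 and Kat6b lower in pre-HSC II. Hdac7, a deacetylase of endothelial cells, had 24.8 CPM in pre-HSC II and 94.9 CPM in HE (log2 -1.94 ± 0.26, edgeR adjusted p = 2.4e-06). Endothelial markers fell over the same step, as given above, and their part in the fall of Hdac7 was not tested. Between E9.5 EC and E8.5 EC the helicases Ruvbl1 and Ruvbl2 of INO80 were the 2 of 23 called, both lower, at log2 -1.62 and -1.96. Of the other Polycomb genes 6 were higher and 1 was lower in E9.5 EC, with Asxl3 at 7.22 CPM in E9.5 EC and 0.244 CPM in E8.5 EC and Bcorl1 at 11.0 and 1.27 CPM. Bcorl1 and Asxl3 were also the 2 of that list higher in E8.5 HE than in E8.5 EC, at log2 3.17 and 3.65, and these comparisons share the E8.5 EC libraries. In those libraries the mean of Asxl3 was near the level of 3 counts, which is 0.118 to 0.188 CPM there. Of the BAF and PBAF genes 2 were higher and 6 lower in E9.5 EC, among them the core subunit Smarcb1 at log2 -0.86 (edgeR adjusted p = 0.022). The COMPASS list gave 2 higher and 1 lower, and the acetyltransferase and deacetylase list 1 higher and 1 lower. Long and short genes moved apart between E9.5 EC and E8.5 EC, as given above. The lists of other genes were not run with the length trend removed, so the part of length in their calls was not tested.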

How the data were processed

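The deposited table holds raw counts per gene, with mm9 coordinates and gene lengths, per the file headers. The submitters' processing notes list TopHat, SAMtools, Subread, featureCounts 1.6.2 and the build mm9. How strand and multiply matching reads were handled, and which annotation was used, is not given in the sources used here. Libraries were made with an ultra-low-input kit from 100 cells, so amplified reads are not independent molecules, and floors of 3 counts cover counting error only.

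Members, gene lists, marker lists and tests were chosen with earlier results of these data known. Called members are named in each comparison, a fixed panel of members is described whatever its result, and up to 4 called genes with the smallest p are named of each list.

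The analysis used edgeR 4.0.16 in R 4.3.3. After filterByExpr (minimum count 10) and TMM scaling to CPM, 1 quasi-likelihood fit covered the 28 libraries with a term for each population (common biological coefficient of variation 0.563). It gave 12 comparisons of 2 populations, 3 differences of differences and 1 test of any difference. P-values were adjusted by Benjamini-Hochberg over 15238 genes. SE is the absolute log2 difference divided by the square root of F. Replicates correlated at 0.907 to 0.956 across genes, and no pair matched within sampling noise. Alternatives were DESeq2 1.42.0, DESeq2 size factors in edgeR, no filter, a replicate block, a fit of the compared libraries alone and each library left out. A length-trend offset and 3 sets of libraries left out were added after seeing the data. The model was tested on simulated data.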

Additional observations from a re-analysis of the deposited data

Results flagged for a closer look

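Of the 44 genes examined in E8.5 HE, the one population with 4 libraries, 3 had a library that stood apart from the other 3. Chance gives about 1 such case in 20 groups, so a few are expected among 44 genes. The count of 3 was not tested against that rate. Kdm6a had 51.7 CPM in replicate 3, against 28.7 to 30.8 CPM in the others. Ash2l had 24.6 CPM in replicate 1, against 41.5 to 44.7 CPM in the others. Chd4 had 325 CPM in replicate 2, against 152 to 162 CPM in the others.

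Ezh1 had opposite differences between HE and EC at E10.5 and at E8.5, and the test of the change gave 1.74 on the log2 scale (edgeR adjusted p = 0.02). The HE mean was 33.9 CPM at E10.5, against 17.2 CPM in EC, and 19.8 CPM at E8.5, against 33.7 CPM in EC.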

How the results depend on the processing

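No call of a member reversed its direction under the alternatives run. The numbers of members called that moved by over 1.5 times were as follows. In pre-HSC I against E10.5 HE, the 2 calls became 1 without the filter on low counts, 5 in DESeq2, 0 in a fit of the compared libraries alone, 0 without the 3 libraries rich in red cell transcripts, 1 without the E10.5 libraries numbered 1 and 5 with the length trend removed. In E8.5 HE against EC, the 0 calls became 2 in DESeq2 and 3 with the length trend removed. In E10.5 HE against EC, DESeq2 called 2 and the fit of the compared libraries 1. In pro-HSC/HPC against HE, none was left (0) without the red-cell-rich libraries or without the E9.5 libraries numbered 2, in which long genes are low. In E10.5 HE against E9.5 HE, DESeq2 called 5 and the length trend removed gave 4. In E9.5 HE against E8.5 HE, the fit of the compared libraries called 1. For the change of the HE and EC difference between E10.5 and E8.5, DESeq2 called 2, and 0 were called in the fit of the compared libraries or without the E10.5 libraries numbered 1.

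Leaving out 1 library at a time gave 0 to 2 members called in E8.5 HE against EC, 0 to 1 in pro-HSC/HPC against HE, 0 to 5 in pre-HSC I against HE, 6 to 8 in pre-HSC II against HE, 2 to 8 in E9.5 EC against E8.5 EC, 0 to 4 in E9.5 HE against E8.5 HE, 0 to 1 for the change of the HE and EC difference between E10.5 and E8.5, and 10 to 19 in the test over all populations.

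Same-numbered libraries did not pair by the rule used, which asked every replicate number of a comparison to pass. Correlations of their deviations were 0.008 to 0.229 between populations of the same day and -0.091 to 0.087 between days. Since a partial sharing by number cannot pass this rule, it does not show that same-numbered libraries of a day were independent. A replicate block gave 2 calls in E8.5 HE against EC, 4 in pre-HSC I against HE and 1 in pre-HSC I against pro-HSC/HPC. It did not call Cbx6 in E9.5 HE against E8.5 HE or Pcgf1 over all populations. The block gives each replicate number the same effect on all days, so it cannot model a sharing by number within a day. Ranks by level depend on the unit: Kmt2d was at rank 17 per kb and rank 2 by CPM, and Pcgf1 at rank 19 and rank 39. Levels near 3 counts limit Cbx7, Ring1, Phf19 and Cbx8.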
